A study of Homo sapiens with 6 samples.

Results

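The proteasome is described here through 48 genes, chosen by name from the 27605 genes of the expression table: the numbered PSMA, PSMB, PSMC, PSMD, PSME, PSMF and PSMG genes together with ADRM1 and POMP. PSMA8, the testis form of an alpha subunit, and PSMB11, the thymus catalytic subunit, match the same names but had no values and could not be analysed. RNA was sequenced from cells labelled HepG2, a human hepatoma line, in 2 groups of 3 libraries. The identity of the line was not tested here, and the hepatocyte markers given below leave it uncertain. The shNC libraries came from cells with a control short hairpin RNA (genotype given as WT), and the shARHGEF2 libraries from cells given lentivirus to knock down ARHGEF2, a guanine nucleotide exchange factor that activates RhoA. Cells of both groups were kept in the same serum-containing medium, and no drug is named for these libraries. The sources used here state neither how many hairpins the shARHGEF2 libraries carry nor whether libraries of a group came from separate cultures, so p-values measure only the spread between these libraries, which may be technical.

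The proteasome degrades proteins that carry ubiquitin chains. Its barrel-shaped core particle is built of outer alpha rings, which gate the entrance, and inner beta rings, which hold the proteolytic sites. A regulatory particle caps the core. Its lid removes ubiquitin and its base, a ring of ATPases with ubiquitin receptors, unfolds the substrate and threads it inside. Dedicated chaperones assemble both particles, interferon exchanges the constitutive catalytic subunits for inducible ones, and other activators can replace the regulatory particle. Because the subunits work in fixed proportions, cells are known to adjust many of these genes together, through the transcription factor NFE2L1, when proteasome activity is short.

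ARHGEF2 itself (chr1:155946851-156007070 on GRCh38, minus strand) was at 13.03, 14.4 and 13.95 FPKM in shNC replicates 1 to 3 and at 4.25, 4.004 and 4.82 FPKM in shARHGEF2 replicates 1 to 3. FPKM scales the fragments of a gene to transcript length and to the size of the library, so levels of genes can be set side by side. It does not correct for GC content, with which level also went, as given below. The knockdown lowered ARHGEF2 by a log2 difference of -1.47 (SE 0.11, limma with Benjamini-Hochberg adjustment, adjusted p = 0.00244). Its difference was -1.47 in 2 settings that ended the call, a replicate block (adjusted p = 0.0716) and no filter on low genes (adjusted p = 0.0701), and -1.49 with the block and a GC content trend removed (adjusted p = 0.0835). All differences below are shARHGEF2 minus shNC on the log2(FPKM + 1) scale, which understates differences of low genes. Of 10 hepatocyte markers, AFP, APOA1, SERPINA1 and HNF4A had values, none averaged 1 FPKM and the highest in any library was 0.248 FPKM, so the defining hepatocyte transcripts were near 0 in libraries labelled HepG2. The other 6 hepatocyte markers, ALB, APOB, TF, TTR, FGB and AHSG, had no values and could not be analysed. Each of the 27605 genes with values was above 0 in some library, so genes without any signal may have been left out. Whether that holds for these 6 is not given in the sources used here. Of 5 epithelial markers, KRT8, KRT18 and KRT19 averaged above 1 FPKM, and EPCAM and CDH1 did not. The summed epithelial list ran from 354 to 458 FPKM in shNC and from 336 to 420 FPKM in shARHGEF2. Of 3 fibroblast markers, COL1A1 and DCN averaged above 1 FPKM, and COL1A2 did not. The summed fibroblast list ran from 8.31 to 9.21 FPKM in shNC and from 9.70 to 11.3 FPKM in shARHGEF2. Markers of squamous and blood cells did not average 1 FPKM. The part of these other markers in the results below was not tested. The paper states that its HepG2 line was authenticated by short tandem repeats. Whether these libraries came from that line was not tested, and with such low hepatocyte markers their identity is uncertain.

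All 48 proteasome genes exceeded the filter of a mean of 0.5 FPKM and were tested, and none passed the adjusted threshold of 0.05 in limma, against 34 of 12291 genes (0.277%) in the whole table. In simulated data with the means and spreads of these libraries, 200 genes were given a set log2 change. At a change of 0.5 the fit called 0 of them, and at a change of 1 it called 150. The lack of calls therefore says little about changes of 0.5 or smaller. One gene, PSMD5, had an unadjusted p below 0.05, against 13.7% of all genes. The fitted difference was below 0 for 31 of the 48 (64.6%, against 50.4% of all genes), and its median was -0.04, against -0.00164 over all genes. Both the split and the gap to all genes moved with single libraries. Without shARHGEF2 replicate 1, 23 of the 48 (47.9%) lay below 0 against 44.1% of all genes, with medians of 0.00356 and 0.03. Without shNC replicate 1, 28 of the 48 (58.3%) lay below 0 against 55.6% of all genes, with a median of -0.03 for both. The libraries of the groups did not overlap for 3 proteasome genes lower in shARHGEF2 (PSMD4, PSMD5 and PSMG1; 6.25%, against 9.17% of all genes) and for 3 higher (PSMD2, PSMD7 and PSME1; 6.25%, against 11.3%). In bulk RNA, fewer cells and less RNA per cell cannot be told apart.

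The intervals describe how closely each difference was fitted from these libraries, on a scale that understates differences of low genes. They rest on a spread that may be technical, so they set no limit on a biological change. The fitted difference was smaller than 0.2 in size for 45 of the 48 genes. The 95% confidence interval lay within 0.5 of 0 on either side for 42 genes, and within 0.25 for 7. It lay within 1 for 47 genes, with PSME3 as the exception. The spread between libraries of a group was modest, with a median within-group SD of 0.136 on the log2 scale against 0.156 over all genes, and 30 proteasome genes lay below the median of all genes.

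**Figure D1:**
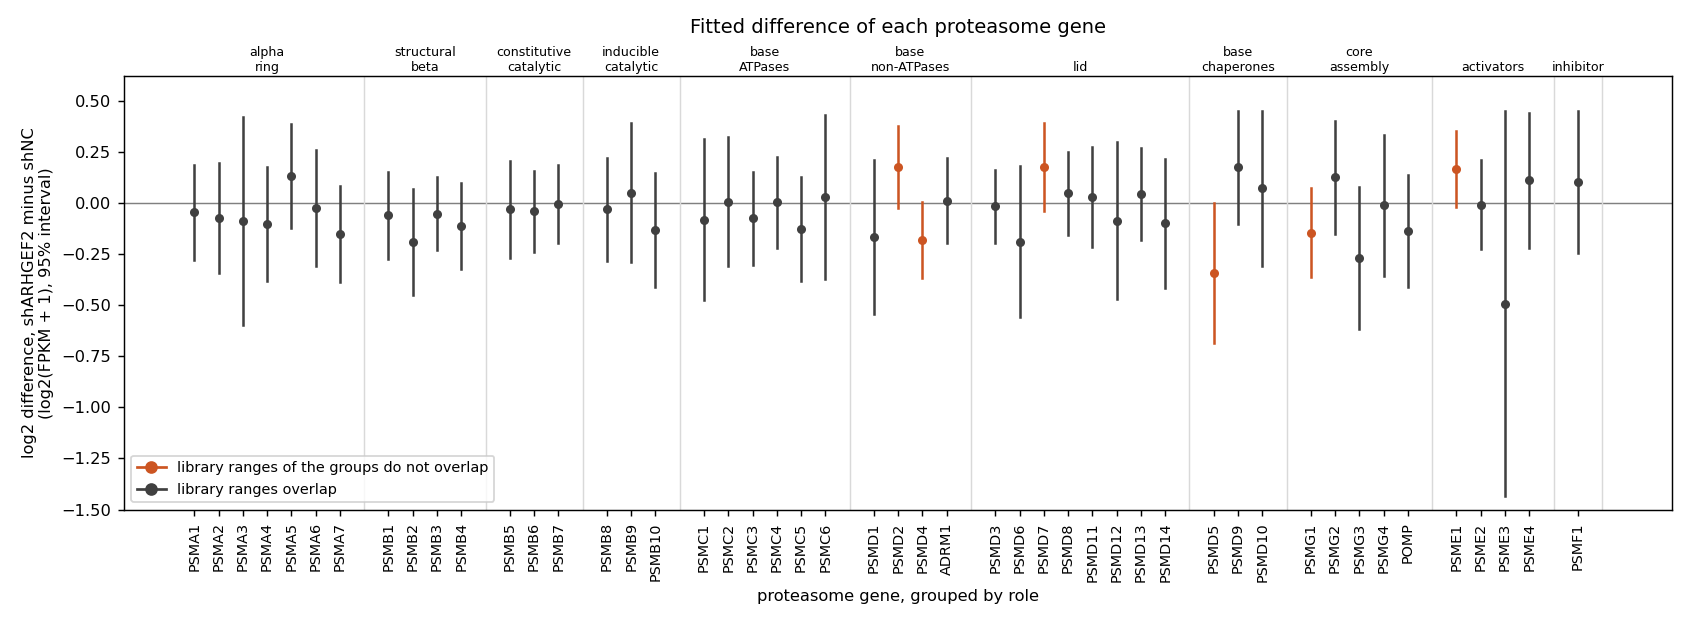
Fitted difference (shARHGEF2 minus shNC, log2(FPKM + 1), vertical axis) of each of the 48 proteasome genes, grouped by role, with its 95% confidence interval from limma. Orange marks the 6 genes whose libraries do not overlap between groups; the interval crosses 0 for every gene but PSMD5, and PSME3 has the widest.

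Levels differed far more between proteasome genes than between groups. The mean over the 6 libraries ran from 1.54 FPKM (PSME4) to 195 FPKM (PSMB3), a 127-fold range, with a median of 19.8 FPKM against 3.96 FPKM over all genes tested. The median of all genes was exceeded by 43 of the 48, 5 averaged above 100 FPKM and 8 averaged below 5 FPKM. Even the 14 constitutive core subunits, which occupy equal places in the particle, ran over a 27.0-fold range, from PSMA3 at 7.23 FPKM to PSMB3. The part of GC content in these ranges was not tested.

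**Figure D2:**
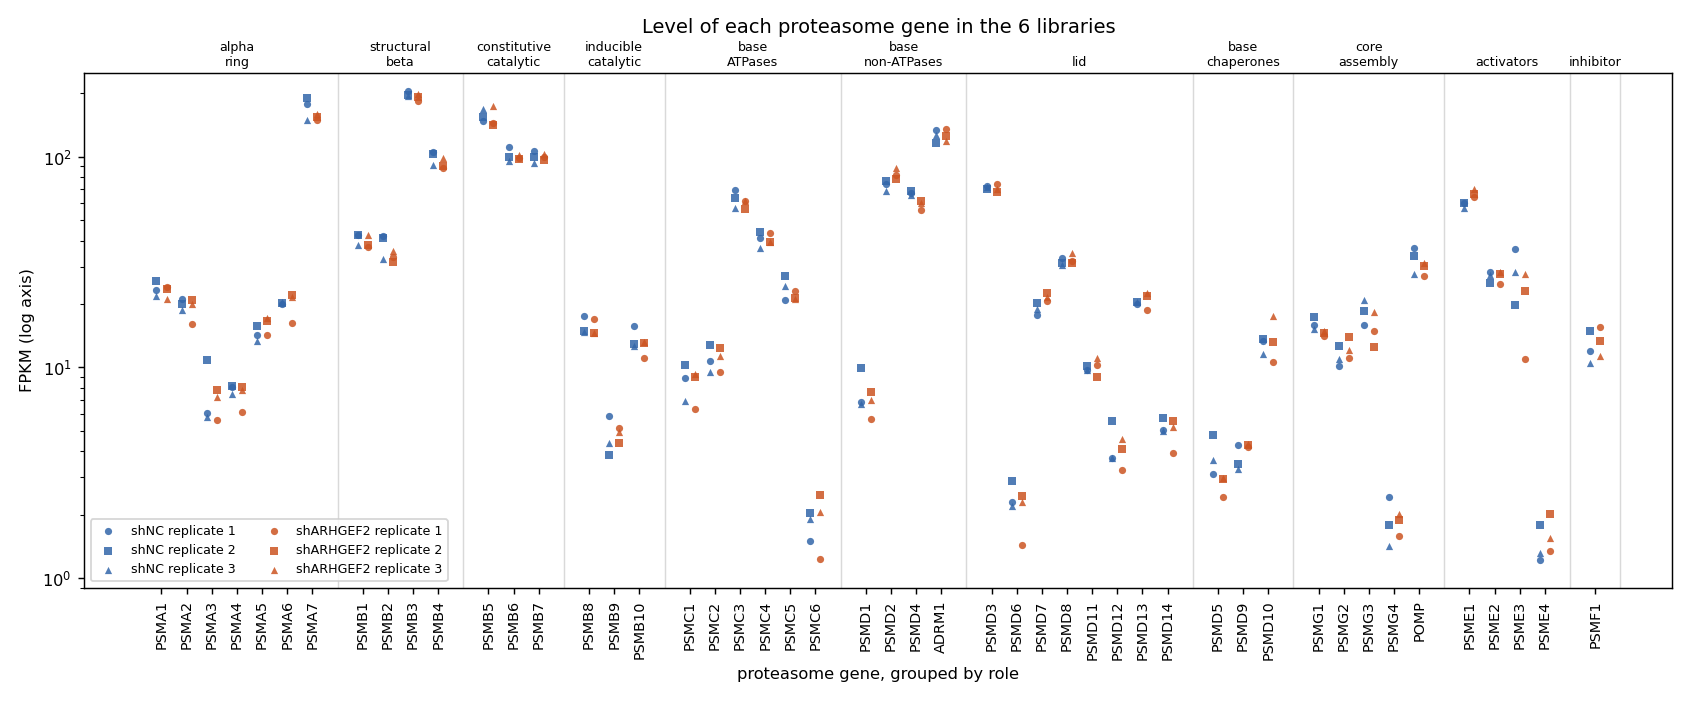
FPKM (log vertical axis) of the 48 proteasome genes in the 6 libraries, grouped by role; blue points are shNC, orange points shARHGEF2, and circle, square and triangle are replicates 1, 2 and 3. Points of most genes lie close together, and those of PSME3 spread most, from 10.99 to 36.6 FPKM. The genes spread from 1.54 FPKM (mean of PSME4) to 195 FPKM (mean of PSMB3).

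Of the 7 alpha-ring genes, PSMA5 was higher in shARHGEF2 and PSMA1, PSMA2, PSMA3, PSMA4, PSMA6 and PSMA7 were lower, with differences from -0.15 to 0.13 and adjusted p in limma from 0.580 to 0.963. PSMA7, the highest of the ring, stood at 179, 189.6 and 149 FPKM in shNC and 149.5, 155 and 159 FPKM in shARHGEF2 (difference -0.15, SE 0.10, adjusted p = 0.580 in limma). Its shNC replicate 3 lay below every shARHGEF2 library, so the groups overlapped. PSMA3, the lowest, was at 6.08, 10.9 and 5.83 FPKM in shNC and 5.62, 7.77 and 7.21 FPKM in shARHGEF2 (-0.09, SE 0.22, adjusted p = 0.910 in limma). Its shNC replicate 2 was the highest library and the remaining shNC libraries fell among those of shARHGEF2.

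The 4 structural beta genes, PSMB1, PSMB2, PSMB3 and PSMB4, build the beta ring without cutting substrates, and each had a difference below 0, from -0.19 to -0.05. PSMB3 was at 206, 195 and 194 FPKM in shNC and 183, 192 and 199 FPKM in shARHGEF2 (-0.05, SE 0.08, adjusted p = 0.838 in limma). Under quantile normalization its difference was 0.0064, so its sign turned. PSMB2, the lowest of the group, was at 41.8, 40.9 and 32.8 FPKM in shNC and 33.4, 31.5 and 35.7 FPKM in shARHGEF2 (-0.19, SE 0.11, adjusted p = 0.510 in limma). For both genes the ranges of the groups overlapped, and shNC replicates 1 and 2 were among the higher libraries.

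The constitutive catalytic subunits, PSMB5, PSMB6 and PSMB7, had differences from -0.04 to -0.0028, and the inducible ones, PSMB8, PSMB9 and PSMB10, from -0.13 to 0.05. PSMB5, which cuts after hydrophobic residues, was at 147, 154 and 168 FPKM in shNC and 144, 142 and 174 FPKM in shARHGEF2 (-0.03, SE 0.10, adjusted p = 0.940 in limma). PSMB6, which cuts after acidic residues, was at 112, 99.7 and 95.8 FPKM in shNC and 98.7, 97.2 and 102 FPKM in shARHGEF2 (-0.04, SE 0.09, adjusted p = 0.892 in limma). PSMB7, which cuts after basic residues, was at 106.5, 99.9 and 93.8 FPKM in shNC and 100.1, 96.6 and 103 FPKM in shARHGEF2 (-0.0028, SE 0.08, adjusted p = 0.996 in limma). The ranges overlapped for each of the 3, and replicate 3 was the highest shARHGEF2 library for each.

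Their inducible counterparts were far lower. PSMB8, which takes the place of PSMB5, was at 17.5, 14.9 and 14.8 FPKM in shNC and 16.9, 14.6 and 14.6 FPKM in shARHGEF2 (-0.03, SE 0.11, adjusted p = 0.943 in limma). PSMB9, which takes the place of PSMB6, was at 5.85, 3.82 and 4.35 FPKM in shNC and 5.17, 4.39 and 4.93 FPKM in shARHGEF2 (0.05, SE 0.15, adjusted p = 0.924 in limma). PSMB10, which takes the place of PSMB7, was at 15.8, 12.9 and 12.6 FPKM in shNC and 11.1, 13.1 and 13.2 FPKM in shARHGEF2 (-0.13, SE 0.12, adjusted p = 0.694 in limma). In shNC, replicate 1 was the highest library for all 3 inducible genes, and the groups overlapped for each. PSMB8 and PSMB9 are neighbours whose annotated ranges overlap on opposite strands (chr6:32840717-32844703 and chr6:32844136-32859585 on GRCh38), and whether the counting used strand is not given in the sources used here.

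The inducible subunits made up 9.69%, 8.22% and 8.13% of the summed catalytic FPKM in shNC and 8.81%, 8.73% and 7.94% in shARHGEF2, ranges that overlap. PSMB5 stood 8.38- to 11.4-fold above PSMB8 in shNC libraries and 8.53- to 11.9-fold in shARHGEF2 libraries. The excess of PSMB6 over PSMB9 was 19.1- to 26.1-fold in shNC and 19.1- to 22.2-fold in shARHGEF2, and that of PSMB7 over PSMB10 was 6.74- to 7.74-fold and 7.38- to 9.06-fold.

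Interferon acts on inducible subunits through a promoter element whose core is a repeat of TTTC, and RefSeq promoter windows (GRCh38.p14, 250 bases before to 50 after an annotated start) were searched for TTTCNNTTTC on both strands. Windows were at hand for 42 of the 48 genes (52 windows, since some genes have several starts). The letters occurred in 7 of these windows (13.5%), against 3.57% of 35116 windows of the same length. Sites of PSMB8, PSMB10, PSME1 and PSME2 are shown because interferon is known to raise these genes, with the match in capitals and read along the gene's strand (PSMB8 chr6:32844032-32844061, minus; PSMB10 chr16:67936852-67936881, minus; PSME1 chr14:24136189-24136218, plus; PSME2 chr14:24146619-24146648, minus).
PSMB8: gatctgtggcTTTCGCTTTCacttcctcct
PSMB10: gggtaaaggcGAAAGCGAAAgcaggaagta
PSME1: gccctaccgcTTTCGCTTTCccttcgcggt
PSME2: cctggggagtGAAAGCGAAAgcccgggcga
The 4 matches share their 10 letters, PSMB10 and PSME2 on the opposite strand, and PSMG4, an assembly factor, held the same letters. PSMA4 and PSMB4 held a match with other letters, and the windows of PSMB9, the remaining inducible subunit, held none. The 7 genes had differences from -0.13 to 0.17 with a median of -0.03, against -0.02 for the other 35 genes with a window. A match describes letters and not binding.

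The base ATPases, PSMC1 to PSMC6, unfold the substrate, and 3 were higher and 3 lower, within -0.13 to 0.03. PSMC3, the highest, was at 69.7, 64.0 and 56.9 FPKM in shNC and 61.9, 56.5 and 61.8 FPKM in shARHGEF2 (-0.08, SE 0.10, adjusted p = 0.809 in limma). PSMC6, the lowest, was at 1.505, 2.03 and 1.91 FPKM in shNC and 1.23, 2.47 and 2.05 FPKM in shARHGEF2 (0.03, SE 0.18, adjusted p = 0.970 in limma). For PSMC6, shARHGEF2 held both the highest and the lowest library. PSMC1, PSMC2, PSMC4 and PSMC5 had adjusted p in limma between 0.679 and 0.993.

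The base non-ATPases held a gene higher and a gene lower in shARHGEF2 without overlap, neither past the threshold. PSMD2, a scaffold that docks shuttle proteins carrying ubiquitinated cargo, was at 74.4, 76.6 and 68.9 FPKM in shNC and 81.6, 78.5 and 88.6 FPKM in shARHGEF2 (0.18, SE 0.09, 95% interval -0.02 to 0.38, adjusted p = 0.427 in limma). PSMD4, a ubiquitin receptor, was at 66.9, 68.6 and 66.1 FPKM in shNC and 55.7, 61.8 and 60.2 FPKM in shARHGEF2 (-0.18, SE 0.08, 95% interval -0.37 to 0.0065, adjusted p = 0.384 in limma). Every shARHGEF2 library exceeded every shNC library for PSMD2 and lay below every one for PSMD4, and the exact permutation p was 0.1 for each, the smallest that 3 against 3 can give.

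ADRM1, another ubiquitin receptor and the highest of the base non-ATPases, was at 133, 116 and 127 FPKM in shNC and 135, 125 and 119 FPKM in shARHGEF2 (0.01, SE 0.09, adjusted p = 0.980 in limma). PSMD1, the other scaffold and the lowest, was at 6.81, 9.90 and 6.68 FPKM in shNC and 5.70, 7.67 and 7.00 FPKM in shARHGEF2 (-0.16, SE 0.17, adjusted p = 0.726 in limma). The groups overlapped for both genes.

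The lid was divided evenly, with PSMD7, PSMD8, PSMD11 and PSMD13 higher and PSMD3, PSMD6, PSMD12 and PSMD14 lower. PSMD7, the inactive partner of the deubiquitinase PSMD14, was at 17.7, 20.3 and 18.9 FPKM in shNC and 20.6, 22.6 and 21.6 FPKM in shARHGEF2 (0.18, SE 0.10, 95% interval -0.04 to 0.39, adjusted p = 0.455 in limma). The groups did not overlap, but shNC replicate 2 and shARHGEF2 replicate 1 lay close together. PSMD14 had a difference of -0.10 (95% interval -0.41 to 0.22).

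PSMD3, a structural lid subunit and the highest, was at 72.8, 70.0 and 71.9 FPKM in shNC and 73.8, 68.0 and 70.4 FPKM in shARHGEF2 (-0.02, SE 0.08, adjusted p = 0.961 in limma). It had the lowest within-group SD of the 48, 0.0458 on the log2 scale. PSMD6, the lowest, was at 2.30, 2.89 and 2.20 FPKM in shNC and 1.44, 2.44 and 2.30 FPKM in shARHGEF2 (-0.19, SE 0.16, adjusted p = 0.668 in limma). Its shARHGEF2 replicate 1 stood below the other 5 libraries, which overlapped.

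Among the chaperones that assemble the base, PSMD5 had the smallest p of the 48. PSMD5 (chr9:120815496-120842984 on GRCh38, minus strand) was at 3.12, 4.75 and 3.61 FPKM in shNC (3.83 ± 0.84, SD, n = 3) and 2.41, 2.94 and 2.99 FPKM in shARHGEF2 (2.78 ± 0.32, SD, n = 3). The highest shARHGEF2 value was under the lowest of shNC, with shARHGEF2 replicate 3 and shNC replicate 1 close together. The difference was -0.34 (SE 0.15, 95% interval -0.69 to -0.00072), with an unadjusted p of 0.0496 and an adjusted p of 0.366 in limma. Without shNC replicate 2, the highest library, the difference was -0.21. Among the fits that left out 1 library, the unadjusted p stayed below 0.05 only without shNC replicate 1. PSMD5 also had no unadjusted p below 0.05 with no filter on low genes. Its adjusted p lay between 0.142 and 0.656 over 15 alternative settings. PSMD10, also known as gankyrin and the highest of the group, was at 13.3, 13.6 and 11.6 FPKM in shNC and 10.6, 13.2 and 17.6 FPKM in shARHGEF2 (0.07, SE 0.17, adjusted p = 0.8997 in limma), and shARHGEF2 held both extremes. PSMD9 had a difference of 0.18 (95% interval -0.10 to 0.45).

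The core assembly factors PSMG1, PSMG2, PSMG3, PSMG4 and POMP had differences below 0 but for PSMG2, within -0.27 to 0.13. PSMG1, which pairs with PSMG2 to build the alpha ring, was at 15.9, 17.4 and 15.2 FPKM in shNC and 14.2, 14.5 and 14.8 FPKM in shARHGEF2 (-0.14, SE 0.10, 95% interval -0.36 to 0.07, adjusted p = 0.562 in limma). PSMG2 had a difference of 0.13 (95% interval -0.15 to 0.40), so the fitted values of the partners had opposite signs. The libraries of the groups did not overlap for PSMG1 and did for PSMG2.

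POMP, which guides the joining of precursor cores and is the highest of the factors, was at 36.8, 33.9 and 27.6 FPKM in shNC and 27.2, 30.1 and 31.4 FPKM in shARHGEF2 (-0.14, SE 0.12, adjusted p = 0.680 in limma). PSMG4, the lowest, was at 2.42, 1.79 and 1.41 FPKM in shNC and 1.59, 1.89 and 2.01 FPKM in shARHGEF2 (-0.01, SE 0.15, adjusted p = 0.989 in limma). The groups overlapped for both. PSMG3, the partner of PSMG4, had a difference of -0.27 (95% interval -0.62 to 0.08).

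The activators differed most among themselves. PSME1 and PSME2 form an interferon-responsive ring that opens the core without ATP. PSME1 was at 60.5, 60.4 and 57.4 FPKM in shNC and 64.1, 66.7 and 69.9 FPKM in shARHGEF2 (0.17, SE 0.08, 95% interval -0.02 to 0.35, adjusted p = 0.411 in limma), and the groups did not overlap. PSME2 was at 28.4, 25.2 and 27.5 FPKM in shNC and 24.9, 27.6 and 28.2 FPKM in shARHGEF2, a difference of -0.0078 with a 95% interval of -0.22 to 0.21. PSME1 exceeded PSME2 by 2.09- to 2.39-fold in shNC and by 2.42- to 2.58-fold in shARHGEF2. The ranges did not overlap, but replicate 2 of shNC (2.39) and replicate 2 of shARHGEF2 (2.42) lay close together. The ratio reuses the PSME1 values above and is not a separate observation. No test was run on this ratio.

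PSME3 (chr17:42824385-42843758 on GRCh38, plus strand), which forms a nuclear activator, varied most from library to library. It was at 36.6, 19.8 and 28.4 FPKM in shNC (28.3 ± 8.4, SD, n = 3) and 10.99, 23.0 and 27.8 FPKM in shARHGEF2 (20.6 ± 8.7, SD, n = 3). The groups overlapped, with shNC replicate 1 highest and shARHGEF2 replicate 1 lowest, a 3.33-fold gap. The difference of -0.49, the lowest fitted among the 48, had a 95% interval of -1.44 to 0.45 (adjusted p = 0.644 in limma). It was -0.11 without shARHGEF2 replicate 1, -0.29 without shNC replicate 1 and -0.75 without shARHGEF2 replicate 3, so its size and its place as the lowest rested on single libraries. Its within-group SD of 0.561 was at the 97.7th percentile of all genes tested. PSME4, a large activator that caps the core, was at 1.21, 1.78 and 1.32 FPKM in shNC and 1.34, 2.02 and 1.55 FPKM in shARHGEF2 (0.11, SE 0.14, adjusted p = 0.804 in limma). PSMF1, an inhibitor of the core, had a difference of 0.10 (95% interval -0.24 to 0.45, adjusted p = 0.831 in limma), and both PSME4 and PSMF1 overlapped between groups.

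**Figure D3:**
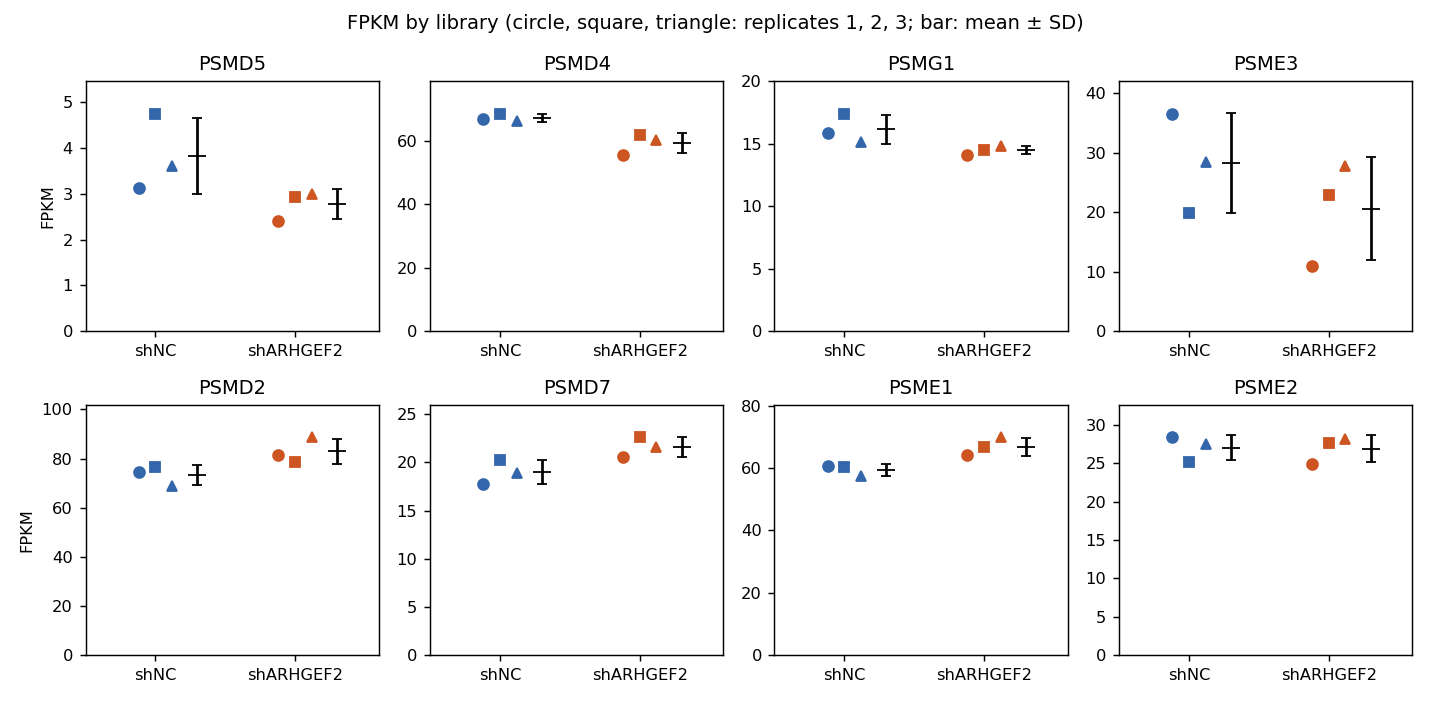
FPKM (vertical axes start at 0) in the 3 shNC (blue) and 3 shARHGEF2 (orange) libraries of the 6 genes whose groups do not overlap, of PSME3 and of PSME2, the partner of PSME1; black bars are the mean ± SD. PSMD5, PSMD4 and PSMG1 lie lower and PSMD2, PSMD7 and PSME1 higher in shARHGEF2, while PSME3 spans 10.99 to 36.6 FPKM.

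Many proteasome genes had their extremes in the same few libraries. Of the 48, 23 had their lowest value in shARHGEF2 replicate 1 and 11 in shNC replicate 3, whereas 15 had their highest in shNC replicate 2 and 14 in shNC replicate 1. How many of all genes had their extremes in each library was not counted. The median deviation from each proteasome gene's mean was 0.03, 0.07 and -0.07 in shNC replicates 1 to 3 and -0.11, 0.00026 and 0.04 in shARHGEF2 replicates 1 to 3 (log2 scale). Over all genes tested it was -0.06, 0.06 and -0.0094 in shNC and -0.05, 0.04 and 0.02 in shARHGEF2. The summed proteasome FPKM was 1911, 1882 and 1769 in shNC and 1740, 1778 and 1876 in shARHGEF2. The libraries of the groups are therefore interleaved on both measures.

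These deviations moved with the GC content of the transcripts, which ran from 34.3% (POMP) to 64.3% (ADRM1). Across the 48 genes, the Spearman correlation of deviation with GC content was 0.30, -0.54 and 0.18 in shNC replicates 1 to 3 and 0.55, -0.48 and -0.10 in shARHGEF2 replicates 1 to 3. Over 12231 genes the same values were 0.21, -0.47, 0.14, 0.58, -0.30 and -0.03, so the trend was present beyond the proteasome. The genes of 1 library share its preparation and depth, and these correlations are descriptions. The 24 proteasome genes with lower GC content had a median deviation of -0.23 in shARHGEF2 replicate 1 and 0.14 in shNC replicate 2, the largest gap between libraries for these genes.

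Level was also higher among the genes of higher GC content. The 24 genes of lower GC content had a median of 11.98 FPKM and the 24 of higher GC content 36.4 FPKM, with a Spearman correlation of 0.54 over the 48 genes and 0.32 over all genes. With a trend on GC content removed from each library, an alternative chosen after the data were seen, 5 proteasome genes (10.4%) had an unadjusted p below 0.05, against 18.9% of all genes in that fit, and 0 an adjusted p below 0.05 in limma. The 5 were PSMD2 (0.17), PSMD4 (-0.18), PSMD5 (-0.32), PSMD7 (0.20) and PSME1 (0.17), with adjusted p from 0.142 to 0.251. These are 5 of the 6 genes without overlap between groups. Both readings use the same 6 libraries, so the match is not a separate observation.

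**Figure D4:**
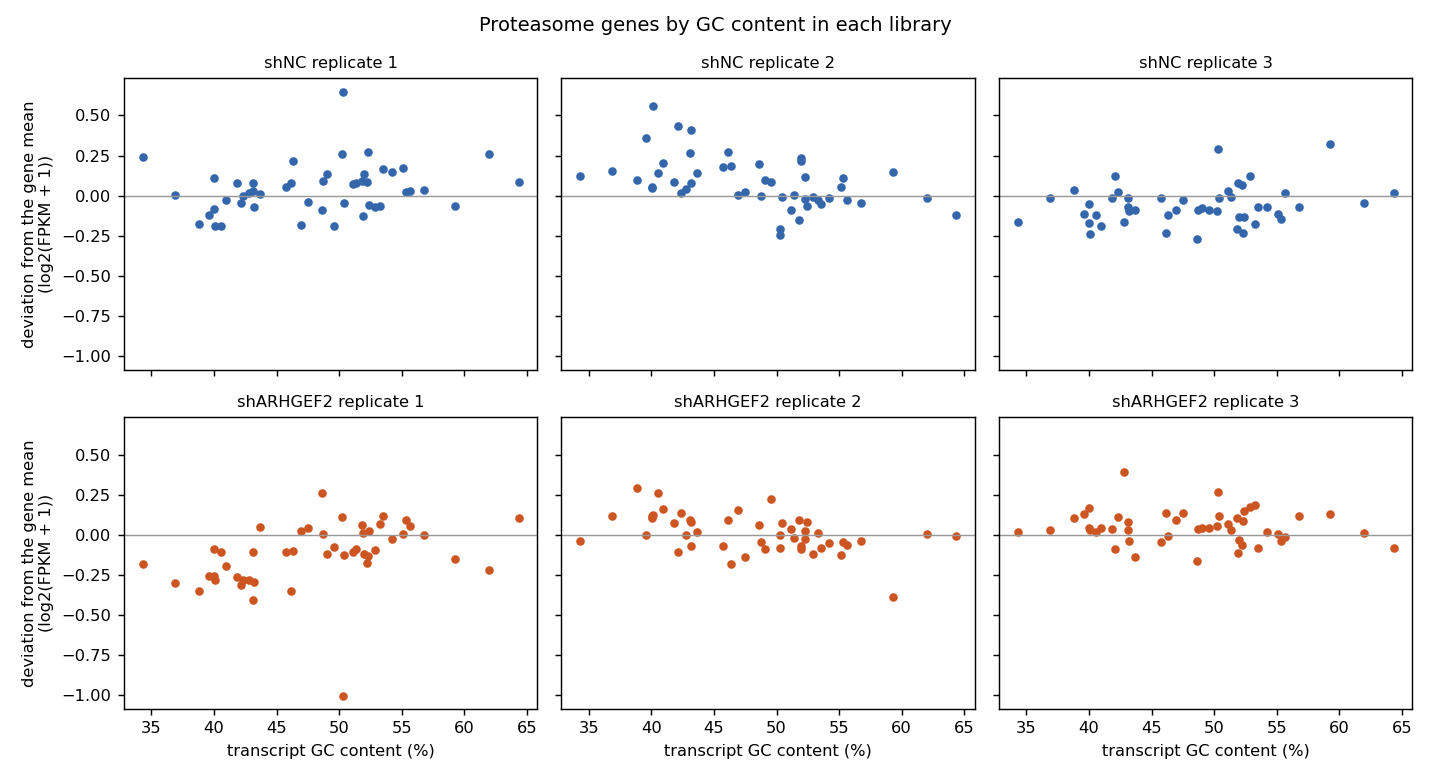
Deviation of each proteasome gene from its mean over the 6 libraries (vertical axis, log2(FPKM + 1)) against the GC content of its transcripts (horizontal axis, percent), 1 panel a library, blue for shNC and orange for shARHGEF2. Genes of low GC content lie high in shNC replicate 2 and low in shARHGEF2 replicate 1; the lowest point of that library is PSME3.

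Genes that act with the proteasome were read from the same fit. Of 50 listed genes 48 were tested, 27 were higher and 21 lower in shARHGEF2, 0 passed the adjusted threshold (0.277% of all genes did), and 5 had an unadjusted p below 0.05 (13.7% of all genes). Those 5 were NFE2L1, MAFK, TAP1, TAPBP and HLA-E, each higher in shARHGEF2 without overlap. In all, 10 of the 48 (20.8%) were higher without overlap, against 11.3% of all genes, and 2 (4.17%), PAAF1 and NLRC5, were lower without overlap, against 9.17%.

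Of the 9 genes of the transcriptional route to the proteasome genes, 7 were higher and 2 lower, where 50.4% of all genes were lower. Their median difference was 0.13. The list was not limited to activators, and the 7 higher included BACH1 (0.13) and KEAP1 (0.05). They also included MAFF (0.52, 95% interval -1.41 to 2.44). NFE2L1, which encodes the factor that raises proteasome genes when activity is short, was at 43.9, 39.4 and 42.4 FPKM in shNC and 53.5, 56.5 and 44.4 FPKM in shARHGEF2 (0.29, SE 0.11, 95% interval 0.04 to 0.53, unadjusted p = 0.0286 and adjusted p = 0.304 in limma). Its partner MAFK was at 35.4, 31.1 and 42.8 FPKM in shNC and 46.6, 43.8 and 43.0 FPKM in shARHGEF2 (0.29, SE 0.12, adjusted p = 0.343 in limma). Without shNC replicate 2 the MAFK difference was 0.19 (adjusted p = 0.560 in limma). The nearest libraries of the groups, shARHGEF2 replicate 3 against shNC replicate 1 for NFE2L1 and against shNC replicate 3 for MAFK, were close together. DDI2, the protease that activates the NFE2L1 protein, had a difference of -0.22 (95% interval -0.66 to 0.22).

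NFE2L1 with a small MAF partner binds the antioxidant response element, whose core letters TGACNNNGC were found on either strand of 17 of the 52 proteasome windows (32.7%), against 13.3% of all windows. The sites of PSMD5, which had the smallest p, of PSMD3, which varied least, and of ADRM1, the highest base non-ATPase, are shown with the match in capitals (PSMD5 chr9:120843038-120843066, minus; PSMD3 chr17:39980760-39980788, plus; ADRM1 chr20:62302749-62302777, plus; RefSeq, GRCh38.p14).
PSMD5: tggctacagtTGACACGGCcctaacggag
PSMD3: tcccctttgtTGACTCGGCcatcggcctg
ADRM1: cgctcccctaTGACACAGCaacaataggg
PSMD3 held another match on the opposite strand (chr17:39980830-39980856), which is not shown. The 16 genes with a match had differences from -0.34 to 0.18 and a median of -0.01, against -0.03 for the other 26 genes with a window. Of these 16, 9 were lower and 7 higher in shARHGEF2.

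Of the 12 tested genes that act with the inducible subunits in antigen presentation, 8 were higher and 4 lower, with a median difference of 0.14. TAP1, which carries the peptides into the endoplasmic reticulum, was at 28.7, 24.2 and 29.8 FPKM in shNC and 34.2, 35.7 and 34.8 FPKM in shARHGEF2 (0.34, SE 0.10, adjusted p = 0.209 in limma). TAPBP, which loads them onto class I molecules, was at 34.8, 35.8 and 39.6 FPKM in shNC and 50.0, 43.0 and 45.5 FPKM in shARHGEF2 (0.32, SE 0.10, adjusted p = 0.207 in limma). HLA-E, a class I molecule, was at 67.6, 63.4 and 87.0 FPKM in shNC and 96.7, 104 and 102 FPKM in shARHGEF2 (0.48, SE 0.12, adjusted p = 0.148 in limma). The groups did not overlap for these 3 genes, and shNC replicate 3 was the highest shNC library for each. Among the other antigen presentation genes, the groups did not overlap for HLA-C (0.19) and IRF1 (0.08), both higher, and for NLRC5 (-0.24, 95% interval -0.51 to 0.02), the transactivator of class I genes, which was lower. Without shNC replicate 3 HLA-E passed the threshold (0.62, adjusted p = 0.0416 in limma). PSMB8 and PSMB9, which lie beside TAP1, had intervals of -0.28 to 0.22 and -0.29 to 0.39.

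Ubiquitin and its activating enzymes were split 3 higher and 3 lower, with UBB (0.20, 95% interval -0.02 to 0.43) and UBA1 (0.19, 95% interval -0.0025 to 0.39) not overlapping between groups. The shuttles and the segregase VCP were split 5 and 6 with differences from -0.23 to 0.11, and none of these 11 was free of overlap. The 10 associated factors were split 4 and 6. AKIRIN2, needed to import proteasomes into the nucleus, had the highest difference of these at 0.20 (95% interval -0.01 to 0.42), and ECPAS, which tethers and disassembles the particle, the lowest at -0.33 (95% interval -0.71 to 0.05).

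**Figure D5:**
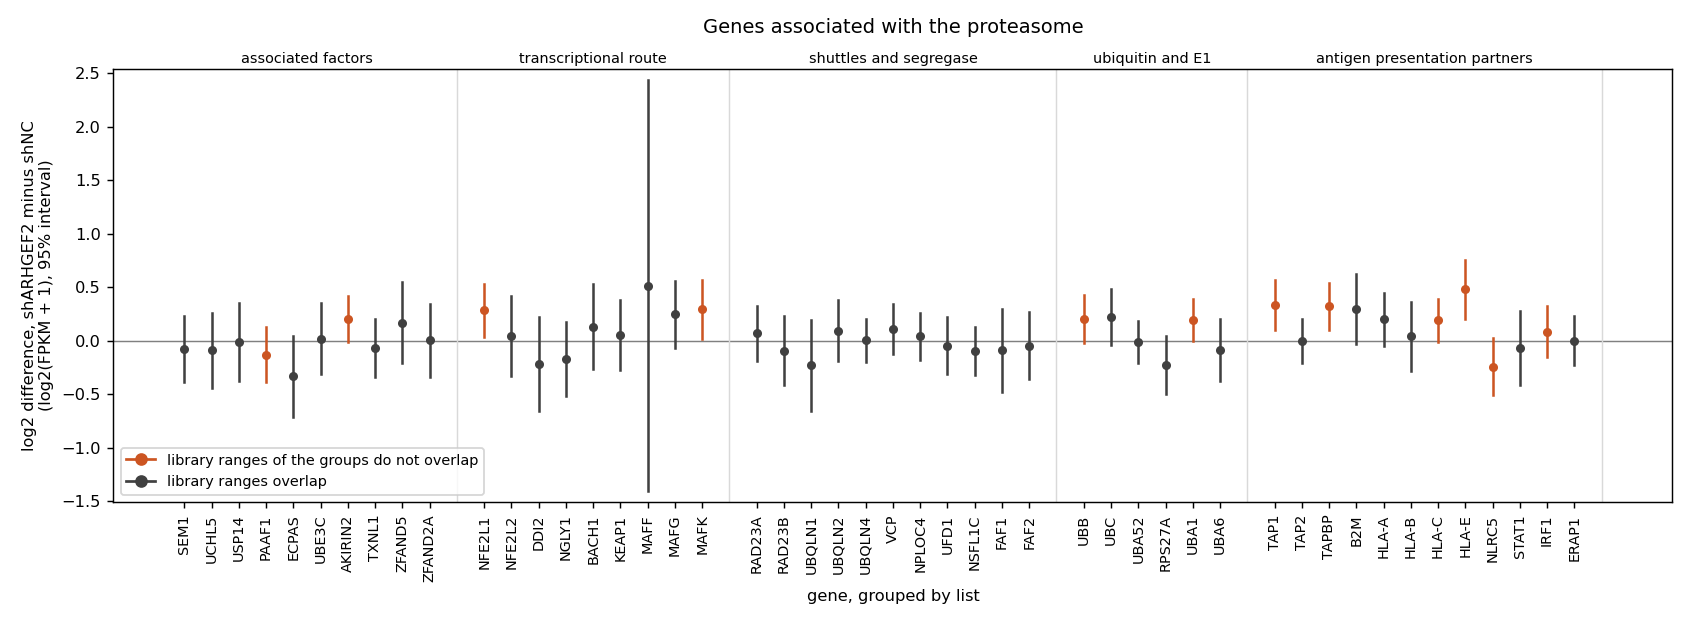
Fitted difference (shARHGEF2 minus shNC, log2(FPKM + 1)) with its 95% confidence interval from limma for 48 genes that act with the proteasome, in 5 lists; orange marks the genes whose libraries do not overlap between groups, 10 higher and 2 lower in shARHGEF2. The intervals of NFE2L1, MAFK, TAP1, TAPBP and HLA-E lie above 0, and that of MAFF is the widest.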

How the data were processed

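The labels describe poly(A)-selected, strand-marked, paired-end RNA-seq with molecular identifiers. The submitters' processing notes name cutadapt 1.9, HISAT2 2.0.4, UMI-tools, StringTie 1.3.4d and hg19. The authors deposited FPKM for 27605 genes and 6 libraries in a single table, together with their own fold changes and p-values, which were not used. Of genes with a single transcript, 44.7% to 47.4% of low FPKM values lay within 0.1 of a whole step, against 20% by chance, too few to recover reads, so depth is unknown and no counting interval was computed.

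FPKM values were used as deposited, as log2(FPKM + 1). The 12291 genes averaging 0.5 FPKM or more were fitted with limma 3.58.1 in R 4.3.3 (trended, robust variances, two-sided, Benjamini-Hochberg, threshold 0.05), after the code was tested on simulated data. Groups follow the sample titles, all 6 libraries entered the fit, and 15 alternatives were run. Gene positions (GRCh38) and GC content came from GENCODE 29, which held 94.7% of the listed transcripts, and promoter windows from RefSeq. The deposited table gives no coordinates.

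The members and lists were chosen with earlier results of these data known. Every member is named in its role group. Per-library values were given for members with p below 0.05 or groups without overlap, the 6 catalytic subunits, the highest and lowest of each role group with at least 3 members, and associated genes with unadjusted p below 0.05. PSME3 and PSME2 were added after their values were seen.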

Additional observations from a re-analysis of the deposited data

How the results depend on the processing

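In all 15 alternatives 0 proteasome genes passed the adjusted threshold in limma, with 0 to 5 (0% to 10.4%) at an unadjusted p below 0.05, against 7.69% to 18.9% of all genes, and a smallest adjusted p of 0.142 (PSMD5, GC content trend removed). Their median difference ran from -0.09 (without shNC replicate 3) to 0.00356 (without shARHGEF2 replicate 1), where the medians of all genes were -0.0091 and 0.03. The gap between the medians ran from -0.08 (without shNC replicate 3) to -0.0017 (without shNC replicate 1), and the sign turned in at least 1 alternative for 25 of the 48. Over all genes, 34 calls became 1 with no filter beyond a value above 0, 54 with at least 1 FPKM in 3 libraries, 19 with quantile normalization, 7 with median of ratios scaling, 7 without trend or robust variances, 63 with the GC content trend removed, and 6 to 102 when 1 library was left out (102 without shNC replicate 3). With the replicate number as a block there were 0 calls in limma (1976 at an unadjusted p below 0.05), and 0 with the GC content trend removed as well (2146 unadjusted). The ARHGEF2 difference was then -1.47 (adjusted p = 0.0716) and -1.49 (adjusted p = 0.0835), and -1.47 with no filter (adjusted p = 0.0701). The cause was not tested. Same-numbered libraries had residual correlations of 0.184, 0.159 and -0.105, and libraries of different numbers from -0.221 to 0.0683. The values for replicates 1 and 2 thus lay above every different-number value, and that for replicate 3 did not. Whether the numbers mark pairs is not given in the sources used here and was not tested, and the main fit did not pair them. Proteasome and associated genes had 0 calls in the main fit and 0 with the block. Since the block called 0 of all genes, this does not measure how stable their results are. Calls among associated genes ran from 0 to 1 when 1 library was left out, the 1 being HLA-E without shNC replicate 3 (0.62). The GC content alternatives were chosen after the data were seen. Fits that leave 2 libraries in a group pool the spread over both groups. Depth is unknown, so no counting error can be given for low members such as PSME4 (1.54 FPKM).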

Other observations

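Several genes share the proteasome names without being subunits or assembly factors. PSMC3IP, which acts in meiotic recombination and was named for binding PSMC3, was at 8.21, 8.40 and 10.4 FPKM in shNC and 11.8, 13.7 and 10.95 FPKM in shARHGEF2. Its groups did not overlap, and the difference was 0.40 (SE 0.13, 95% interval 0.11 to 0.68, unadjusted p = 0.0130 and adjusted p = 0.232 in limma). PSME3IP1, which binds PSME3, was at 4.14, 8.39 and 7.20 FPKM in shNC and 6.04, 6.97 and 6.69 FPKM in shARHGEF2, with overlap. Of 14 pseudogenes of proteasome genes, PSMA6P1 (mean 2.81 FPKM) and PSMC1P1 (mean 1.65 FPKM) were tested and the other 12 averaged at most 0.266 FPKM. PSMA6P1 and PSMC1P1 resemble PSMA6 (mean 20.04 FPKM) and PSMC1 (mean 8.44 FPKM), and how reads shared with these copies were assigned is not given in the sources used here, so the values of these parent genes are uncertain to that extent. The 4 antisense genes averaged at most 0.497 FPKM.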
